A study of Mus musculus with 474 samples.

Results

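Pairs of sister cells were compared by how much transcript of Procr they carried together. Procr encodes EPCR, a surface receptor by which haematopoietic stem cells (HSCs), the blood-forming cells of the marrow, are often sorted. Divisions with both daughters sequenced were ranked within their culture experiment by the sisters' mean log2(CPM + 1) of Procr, called the Procr score (CPM, counts on a gene scaled to the library's total over genes). Each ranking was cut into 3 parts of like size. The top parts gave 64 Procr-high divisions and the bottom parts 64 Procr-low divisions, together 63.1% of the paired divisions and 54.01% of all cells of the series. The 75 divisions between them are described and entered no fit. All cells share 1 background, strain and genotype: HSC daughters from bone marrow of wild type male C57BL/6JRj mice aged 12 to 19 weeks, picked by micromanipulator after a first division in culture and read with Smart-Seq2, a plate method that covers whole transcripts. Each division has 1 daughter labelled high and 1 labelled low for inherited lysosomes. There were 9 culture experiments, 5 of them in sequencing run 4 and the others in run 5, and the experiment is the replicate.

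EPCR presents protein C, a plasma protease zymogen, to the thrombin and thrombomodulin complex, and the activated protease then signals through the thrombin receptor PAR1, the product of F2r. In mouse marrow, high EPCR marks HSCs that are mostly quiescent and repopulate blood over the long term, and EPCR signalling has been tied to their retention in the niche. A cell about to divide again builds up transcripts of DNA replication genes first and of mitotic genes later, and a resting daughter does not.

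Procr (ENSMUSG00000027611, GRCm38 chromosome 2, 155751117 to 155755471) chose the divisions, so its values here are a description without a test. Summed over the cells of each experiment, it had 51.2 to 253.3 CPM in Procr-high divisions (median of 9 experiments 163.8). The middle divisions had 10.4 to 95.7 CPM (median 61.9) and Procr-low divisions 0 to 32.9 CPM (median 17.4). A Procr count was found in all cells of Procr-high divisions, in 94% of the middle and in 57.03% of cells of Procr-low divisions. In 16 Procr-low divisions neither sister had a count, and in 23 others 1 of the sisters had none. Sisters differed by a median of 0.81 on the log2 scale in Procr-high and 1.83 in Procr-low divisions. The scale itself differed between experiments. In experiment 60 the lowest Procr-high division scored 3.67 and the highest middle division 3.61, while in experiment 77 these were 7.50 and 7.19. At the lower boundary the lowest middle and highest Procr-low division were at 0.00 and 0.00 in experiment 60, where 1 tie ran across the boundary, and at 5.65 and 5.50 in experiment 74. The plot of scores by experiment shows how the groups lie within each culture.

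**Figure D1:**
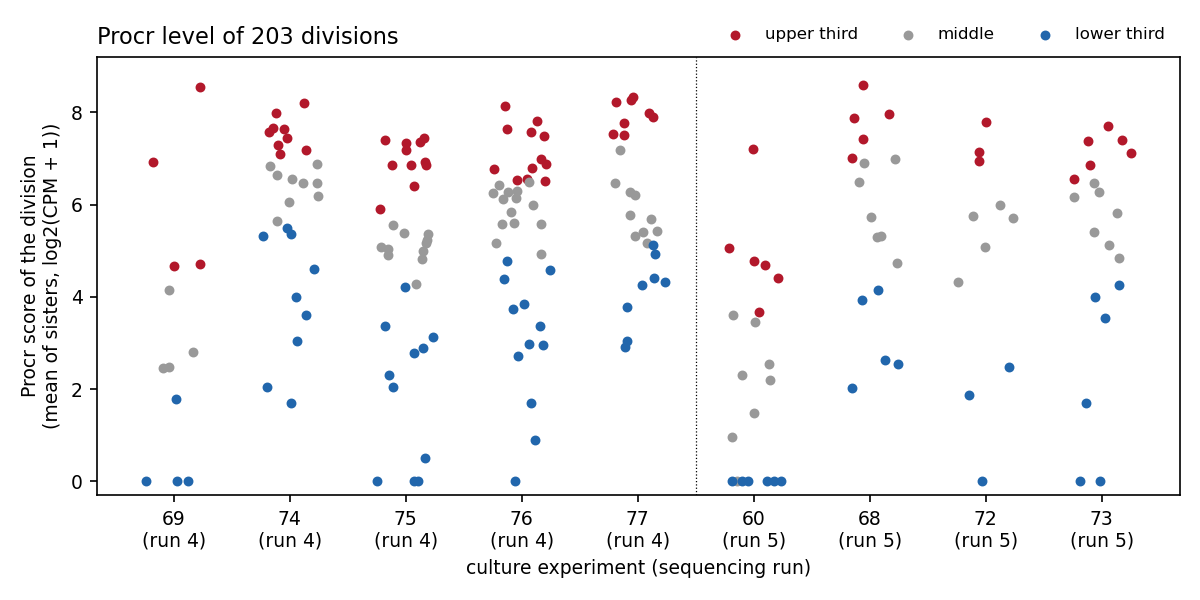
Each point is a division, placed by its culture experiment and its Procr score, the mean of the 2 sisters' log2(CPM + 1), and coloured by group. The boundaries differ between experiments, and experiment 60 lies lowest, with all 6 of its Procr-low divisions at 0.

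Procr in a daughter could be tested when only its sister set the rank. When divisions were ranked by Procr of the high-lysosome daughter alone, Procr in the low-lysosome daughters, which the ranking did not read, stood at 48.7 to 273.7 CPM in the upper group (median 149.04) and at 0 to 56.2 CPM in the lower group (median 36.2). This was a log2 difference of 2.92 ± 0.55 (SE), higher in 9 of 9 experiments (edgeR quasi-likelihood test, Benjamini-Hochberg adjusted p = 0.0276). The call was lost without experiment 73 (adjusted p = 0.0663), 74 (0.0583) or 77 (0.0722), with differences of 2.92, 3.13 and 3.12. Ranked the other way round, Procr in the high-lysosome daughters was at 33.3 to 268.1 CPM (median 117.2) against 5.85 to 72.5 CPM (median 24.5), a log2 difference of 2.51 ± 0.29, again in 9 of 9 experiments (adjusted p = 0.000632).

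Library measures of the groups were compared over the 9 experiments. Median total counts were 786876 in Procr-high, 851198 in middle and 841395 in Procr-low cells, and paired cells ranged from 76735 to 2444858. Upper minus lower, log2 totals stood at 0.05 ± 0.32 (SD over 9 experiments; 2-sided exact sign-flip permutation test, p = 0.633), detected genes at -146.8 ± 353.7 (exact p = 0.254) and mitochondrial counts at 0.10 ± 0.16 points (exact p = 0.102). These differences were within the spread between experiments. Counts on genes per spike-in count differed by -0.46 ± 0.43 on the log2 scale, lower in Procr-high divisions in 7 of 9 experiments (exact p = 0.0195, adjusted p = 0.0488 over 5 measures). This call was lost without experiment 68 (adjusted p = 0.0781) and without 69, 72, 73, 74, 76 or 77 (0.0977 each). The 5 measures include the share of divisions without a Plk1 count, which was added after seeing the data. The adjusted p of the spike-in ratio depends on that measure. The part of this RNA ratio in the gene results was not tested.

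Cell cycle genes were among those that fell in Procr-high divisions, and HSC and lysosomal genes among those that rose. Among 11972 other genes tested on summed counts with edgeR and the experiment as block, 540 were higher (4.51%) and 648 lower (5.41%) in Procr-high divisions, and the median log2 difference of all genes was 0.00. The sign was shared by 9 of 9 experiments in 61.3% of the genes called higher and 61.7% of those called lower. A change of at least 1 on the log2 scale was seen in 41.7% and 37.96% of them. The share of genes tested that were lower moved by over 1.5 times in count without experiment 74 (3.28%) or 77 (3.4%). In run 4 alone 0.405% of genes were higher and 0.939% lower, and in run 5 alone 0.39% and 0.491%.

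Of 49 mitotic (G2/M) genes tested, 48 fell and 0 rose, with a median of -2.09 against 0.00 over all genes. Plk1, a kinase that drives mitosis (chromosome 7, 122159439 to 122169873), had 0.70 to 77 CPM in Procr-high divisions (median 23.03) and 54.1 to 210.8 CPM in Procr-low divisions (median 123.2). The ranges overlap, while within each of the 9 experiments Plk1 was lower in Procr-high divisions, with a log2 difference of -2.55 ± 0.46 (SE) (edgeR adjusted p = 0.00482). Ndc80, a kinetochore protein gene (chromosome 17, 71496100 to 71526857), was at 10.3 to 60.4 CPM (median 25.9) against 60.5 to 150.99 CPM (median 85.9), without overlap of the groups. It fell by 1.86 ± 0.20 (adjusted p = 0.000621). Cks2, a subunit of cyclin-dependent kinases, fell by 1.61 ± 0.19, the chromosomal passenger gene Incenp by 1.72 ± 0.21 and Cdca3, which helps start mitosis, by 2.07 ± 0.25. Among the 10 genes with the smallest p on this side outside the list, Hjurp loads the centromeric histone (-1.19 ± 0.11), Bora helps activate Aurora A (-1.31 ± 0.14), Cit acts in cytokinesis (-1.82 ± 0.21) and Iqgap3 is a scaffold protein gene (-1.97 ± 0.19). Rad18 (-1.05 ± 0.10) and Blm (-1.26 ± 0.14) act in DNA repair, and Hmgb2 (-1.46 ± 0.17) is a chromatin protein gene. In each of these genes the sign was shared by 9 of 9 experiments.

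Replication genes were lower too. Of 43 G1/S genes, 22 fell (51.2%, against 5.41% of all genes tested) and 0 rose (against 4.51%), with a median of -0.53. There were 15 lower without each of experiments 60, 68, 73, 74 or 77 in turn and 29 without experiment 69. Rrm1, the large subunit of ribonucleotide reductase (chromosome 7, 102441695 to 102469771), was at 160.2 to 521.2 CPM (median 316.2) against 376.7 to 895.5 CPM (median 648.2), overlapping ranges with a lower value in 9 of 9 experiments. It fell by 1.05 ± 0.18 (adjusted p = 0.00361). The clamp loader gene Rfc5 fell by 1.02 ± 0.16, the replicative helicase gene Cdc45 by 0.87 ± 0.15 (lost with divisions as the unit, -0.82, adjusted p = 0.095) and the single-strand binding gene Rpa2 by 0.73 ± 0.13. Cdk6, the G1 kinase gene that HSCs raise as they leave quiescence, had 299.98 to 572.0 CPM (median 364.7) against 398.9 to 1888.5 CPM (median 597.7), and fell by 0.89 ± 0.15 in 9 of 9 experiments (adjusted p = 0.00284).

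Plk1 transcripts were often missing from both sisters of Procr-high divisions. Plk1 had no count in either daughter in 37 of 64 Procr-high divisions (57.8%), in 22 of 75 middle divisions (29.3%) and in 12 of 64 Procr-low divisions (18.8%). Averaged over experiments the difference between the ends was 41.8 ± 28.2 percentage points (SD, n = 9), positive in 8 experiments and negative in 0 (2-sided exact sign-flip permutation test, p = 0.0078, adjusted p = 0.0391 over 5 measures). Without any single one of experiments 68, 69, 72, 73, 74, 76 or 77 the adjusted p was 0.0781, with differences of 37.7 to 44.5 points. The Plk1 measure was added after seeing the data. It reads the same Plk1 counts that edgeR called lower above, so it is not separate support. The G2/M score of a division, the mean log2(CPM + 1) of the list, was 2.54 ± 0.79 in Procr-high, 5.02 in middle and 5.67 ± 1.06 in Procr-low divisions (SD over 9 experiments), lower in Procr-high divisions in 9 of 9. G1/S scores were 4.71 ± 0.65, 5.89 and 6.05 ± 0.36. Across all paired divisions, centred on their experiment, Procr score and G2/M score had a Pearson's r of -0.43, with -0.17 in experiment 60 and -0.83 in experiment 69 at the ends. This is given as a description, because divisions of 1 culture and both scores of 1 library are not independent.

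**Figure D2:**
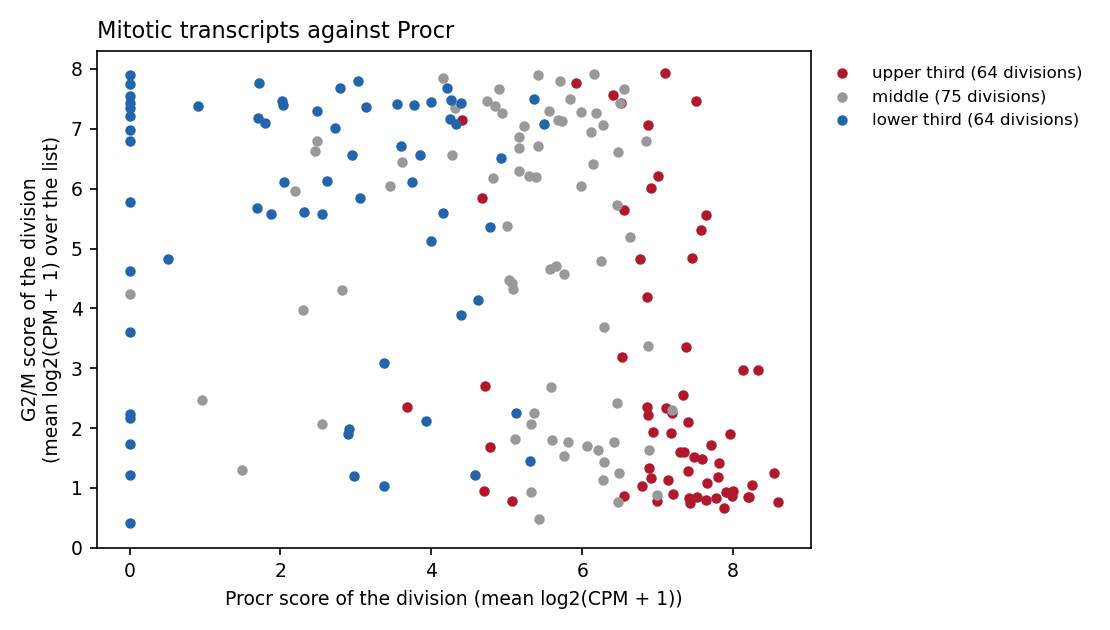
Each point is 1 paired division, with its Procr score on the horizontal axis and its G2/M score on the vertical axis, both mean log2(CPM + 1), coloured by group. The bottom right holds mostly Procr-high divisions, and Procr-low divisions are spread over all G2/M scores with most of them high.

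Promoters of genes that fell are shown because members of the mitotic list moved together. The windows, 300 bases long, come from RefSeq on GRCm38.p6 and lie around a RefSeq transcript start, which for Procr and Ctsl falls inside the GENCODE span given for the gene, and capitals mark CCAAT (the NF-Y box), TTTGAA (the cell cycle genes homology region, CHR) and CACGTG (the E-box) on either strand. Ndc80 (minus strand) has 1 CHR and Cks2 (plus strand) has 4 CCAAT boxes. The window of Procr (plus strand) has 0 of any of them.
Ndc80, chr17:71526808-71527107: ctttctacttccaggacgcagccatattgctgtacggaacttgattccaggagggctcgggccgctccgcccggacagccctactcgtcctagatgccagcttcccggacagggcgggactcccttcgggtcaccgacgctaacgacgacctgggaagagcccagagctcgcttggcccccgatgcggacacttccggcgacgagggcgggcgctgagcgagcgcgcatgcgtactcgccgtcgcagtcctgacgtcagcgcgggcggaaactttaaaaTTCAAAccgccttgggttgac
Cks2, chr13:51644982-51645281: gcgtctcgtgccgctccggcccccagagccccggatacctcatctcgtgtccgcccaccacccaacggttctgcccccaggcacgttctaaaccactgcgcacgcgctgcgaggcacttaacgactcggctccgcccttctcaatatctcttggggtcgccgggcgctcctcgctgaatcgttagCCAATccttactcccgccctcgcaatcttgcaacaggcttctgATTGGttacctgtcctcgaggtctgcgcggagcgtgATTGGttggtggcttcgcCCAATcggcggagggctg
Procr, chr2:155750967-155751266: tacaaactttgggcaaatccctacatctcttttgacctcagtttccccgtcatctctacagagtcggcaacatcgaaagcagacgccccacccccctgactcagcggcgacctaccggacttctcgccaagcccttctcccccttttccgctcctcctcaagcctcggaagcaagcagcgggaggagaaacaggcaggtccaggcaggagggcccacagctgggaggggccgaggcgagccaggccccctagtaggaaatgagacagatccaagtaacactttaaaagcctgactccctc
Of 42 promoter windows of the mitotic list, 66.7% hold TTTGAA and 78.6% hold CCAAT on either strand. Over all 32851 promoter windows these shares are 17.9% and 37.4%, and over windows of all genes tested 12.1% and 37.8%. Windows of genes called lower hold TTTGAA in 27.3% and CCAAT in 52.8%, and those of genes called higher in 11.2% and 29.6%. The motifs were picked after the gene results were seen, a match describes letters only, and a gene with several start sites counts once for each.

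HSC identity genes hold transcription factors and surface proteins of long-term HSCs. Of the 45 tested, 13 rose (28.9%, against 4.51% of all genes tested) and 2 fell (4.44%, against 5.41%) in Procr-high divisions. A positive difference was seen in 38, the median was 0.50, and leaving out 1 experiment left 11 to 13 higher. Hlf, a transcription factor gene of long-term HSCs (chromosome 11, 90336536 to 90390895), had 463.6 to 1234 CPM (median 606.7) against 109.5 to 386.98 CPM (median 255.1), without overlap. It rose by 1.54 ± 0.25 in 9 of 9 experiments (adjusted p = 0.00272). Fgd5, a guanine exchange factor gene used as an HSC reporter (chromosome 6, 91978878 to 92076004), was at 61.2 to 162.01 CPM (median 120.2) against 8.72 to 98.2 CPM (median 31.7), overlapping in range, with a rise of 1.79 ± 0.28 in 9 of 9 experiments. The middle group lay between the ends in 8 experiments for Fgd5.

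Mecom, a zinc finger factor gene needed for HSC maintenance, stood at 1160 to 3054 CPM (median 2097) against 495.1 to 1978 CPM (median 1221) and rose by 0.77 ± 0.20 in 9 of 9 experiments (adjusted p = 0.0281). Ly6a, the gene of the sorting marker Sca-1, was at 248.1 to 503.8 CPM (median 379.1) against 20.2 to 325.8 CPM (median 176.4), overlapping, and rose by 1.33 ± 0.34 in 8 of 9 (adjusted p = 0.0266). Both calls were lost without single cultures. Mecom missed the threshold without experiment 60 (adjusted p = 0.052), 73 (0.0736) or 77 (0.0513), and Ly6a without 68 (0.0579), 72 (0.0518) or 73 (0.0656). Pdzk1ip1 (0.99 ± 0.15) and the endothelial-type adhesion gene Esam (0.60 ± 0.13) rose too, as did Prdm16 (0.67), Erg (0.58) and Gimap6 (1.09), named after their values were seen. The 2 that fell were Gata2 (-0.86) and Gfi1b (-1.06), transcription factor genes that act in HSCs and in megakaryocyte and erythroid cells.

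Other sorting genes did not pass on sums with edgeR. Kit, the stem cell factor receptor, differed by 0.32 ± 0.11 (adjusted p = 0.0824) and Cd34 by 0.43 ± 0.27 (0.339). Slamf1, which encodes CD150, had 0.51 ± 0.88 (0.766), with a count in 39.1% and 25% of cells. Cd48 did not pass the filter on low counts. Kit passed without experiment 69 (0.40, adjusted p = 0.03), and also with DESeq2 (0.33, 0.024), voom (0.30, 0.0482), divisions as the unit (0.27, 0.0236; 0.0357 with total counts and detected genes, 0.0287 with plate), the ranking cut into 4 (0.37, 0.0495) or 2 (0.32, 0.0148), ranking by mean CPM (0.40, 0.0342) and limma on mean log2(CPM + 1) (0.40, 0.033).

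**Figure D3:**
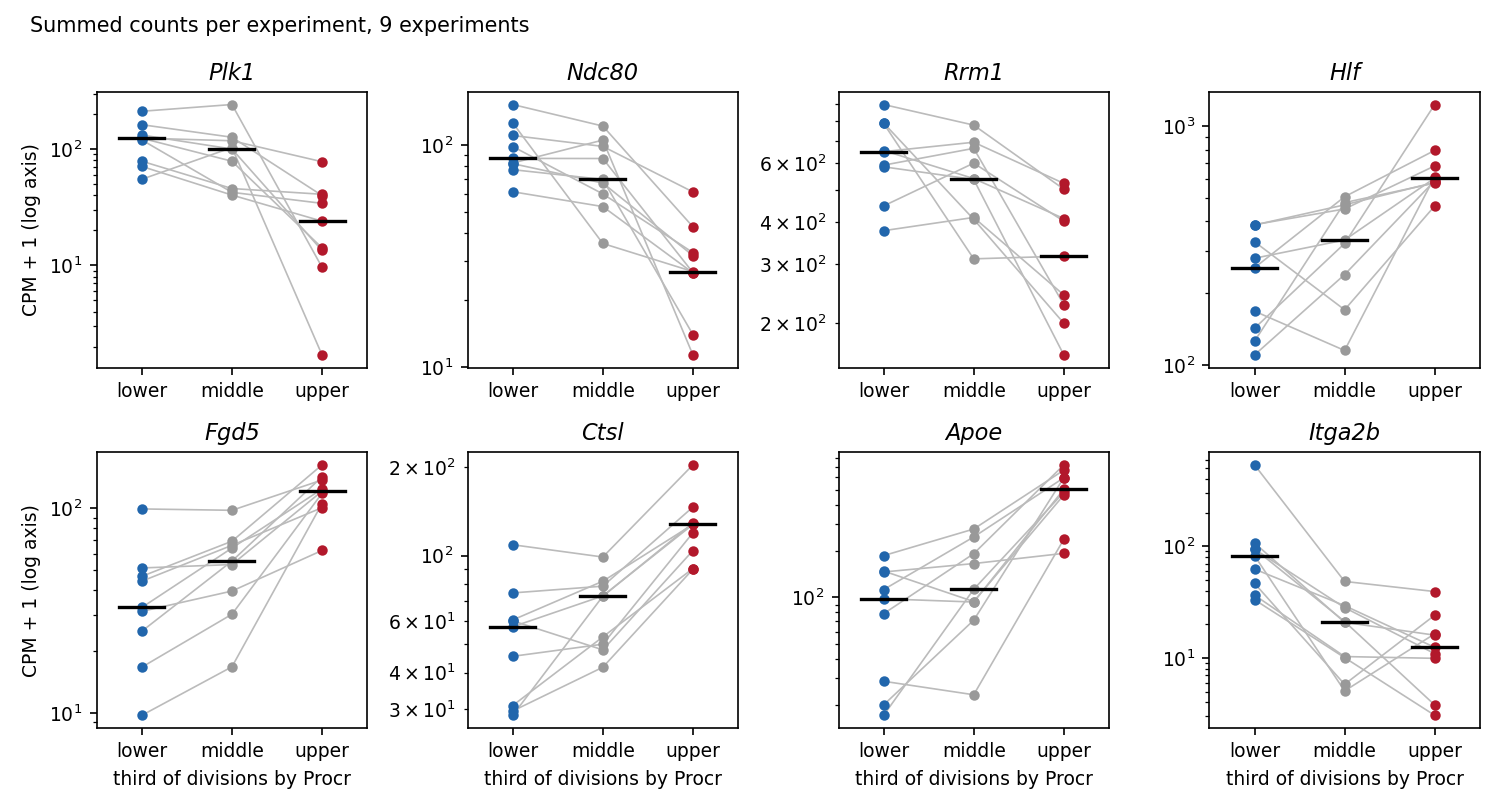
Summed CPM plus 1, on log axes, of 8 genes in the 3 groups of each of 9 experiments, with grey lines joining an experiment and black bars at the median. Plk1, Ndc80, Rrm1 and Itga2b were lower and Hlf, Fgd5, Ctsl and Apoe higher in Procr-high than in Procr-low divisions of every experiment.

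Genes of the protein C and thrombin list that rose encode annexins, Gas6, receptors of Gas6 and a plasminogen activator. Of 24 protein C and thrombin genes 15 were tested, with a median of 0.29. There were 6 that rose (40%, against 4.51% of all genes tested) and 1 that fell (6.67%, against 5.41%). The share that fell lies near that over all genes tested. Without experiment 73, 4 were higher. Among the genes called, F2r, Axl and Plau fall outside the naming rule and were chosen after their values were seen. F2r, the gene of PAR1, fell by 0.65 (adjusted p = 0.028), a call that was lost without experiments 60, 69, 72, 73 or 76. Anxa5, which covers exposed phosphatidylserine and so limits coagulation, had 260.1 to 963.7 CPM (median 581.8) against 146.6 to 575.1 CPM (median 365.6) and rose by 0.61 ± 0.09 in 9 of 9 experiments (adjusted p = 0.00119). Anxa2, a cell surface cofactor for plasmin formation, rose by 1.24 ± 0.27. The protein S relative Gas6 (2.003 ± 0.412) and its receptor gene Axl (1.82) rose together. Mertk, another receptor of Gas6, had no count in the Procr-low sums of 4 experiments and a count in 28.9% against 7.03% of cells, so no fold is given, though edgeR called it (adjusted p = 0.0134). Plau, the gene of urokinase, stood at 2.27 (edgeR adjusted p = 0.0498).

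Lysosomal hydrolases are the enzymes that break down cargo in the lysosome. Of 38 hydrolase genes tested 17 rose (44.7%, against 4.51% of all genes tested) and 0 fell (against 5.41%) in Procr-high divisions. A positive difference was seen in 35, and the median was 0.42. Leaving out 1 experiment gave 15 to 19 higher. Ctsl, the gene of cathepsin L (chromosome 13, 64359337 to 64370890), was at 88.96 to 202.97 CPM (median 126.8) against 27.6 to 107.99 CPM (median 56.3), overlapping, and rose by 1.27 ± 0.14 in 9 of 9 experiments (adjusted p = 0.000642). The sialidase gene Neu1 rose by 1.37 ± 0.21, the glucosidase gene Gaa by 0.62 ± 0.10, the ceramidase gene Asah1 by 0.56 ± 0.09 and the cathepsin D gene Ctsd by 0.69 ± 0.13. Further calls included Psap (0.63), Scpep1 (0.81), Npc2 (0.39), Ctsb (0.42), Tpp1 (0.65), Ppt1 (0.42), Ctss (3.59), Lipa (0.65), Gla (0.77) and Ctsh (1.61), given after their values were seen. Of 29 genes of the lysosome membrane, the proton pump and mTORC1, 6 rose (20.7%, against 4.51% of all genes tested) and 0 fell (against 5.41%), with a median of 0.19. Among those that rose were the pump subunit Atp6v1a (0.41 ± 0.08), its accessory Atp6ap1 (0.53 ± 0.13), the membrane protein gene Scarb2 (0.46 ± 0.11) and the cystine exporter gene Ctns (0.71 ± 0.19). The count of higher genes fell to 3 without experiment 68 or 73, and to 4 without 72, 74 or 77. The Ctns call was lost without experiments 68, 73, 74 or 77.

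The promoter of Ctsl (minus strand) is shown because it holds the E-box core, CACGTG, that TFEB-type factors of lysosomal genes read. The window of Neu1, a hydrolase gene that also rose, has 0 matches of CACGTG. All of the Ctsl window lies inside the GENCODE span of the gene.
Ctsl, chr13:64370471-64370770: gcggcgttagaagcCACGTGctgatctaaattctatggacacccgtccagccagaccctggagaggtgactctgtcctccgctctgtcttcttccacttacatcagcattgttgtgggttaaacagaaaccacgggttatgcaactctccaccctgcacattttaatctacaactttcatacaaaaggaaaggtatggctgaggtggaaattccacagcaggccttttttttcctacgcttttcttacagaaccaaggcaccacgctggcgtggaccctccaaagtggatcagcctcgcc
Of 33 windows of the hydrolase list 27.3% hold CACGTG, against 10.1% of windows of all genes tested and 7.15% of all promoters. Windows of genes called higher hold it in 8.25% and those called lower in 9.64%. The longer form TCACGTGA, which overlaps it, is in 3 of the 33 hydrolase windows (9.09%). It is in 1.86% of windows of all genes tested and 0.974% of all promoters.

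Megakaryocyte genes went both ways. Itga2b, the gene of the platelet integrin CD41 (chromosome 11, 102453297 to 102470122), had 2.07 to 38.4 CPM in Procr-high divisions (median 11.5) and 32.3 to 536.3 CPM in Procr-low divisions (median 81.6). The ranges overlap slightly, and Itga2b was lower in 9 of 9 experiments, with a log2 difference of -2.96 ± 0.35 (adjusted p = 0.000688), and 43.8% and 77.3% of cells had a count of it. The platelet glycoprotein gene Gp9 fell by 1.49 ± 0.34 in 8 of 9, a call lost with the ranking cut into 4 (adjusted p = 0.0651) and without the experiment block (0.0621). Vwf, the clotting factor gene that marks platelet-biased HSCs, stood on the other side with 69.7 to 212.6 CPM (median 144.2) against 13.4 to 180.9 CPM (median 49.3), a rise of 1.28 ± 0.26 in 9 of 9 experiments (adjusted p = 0.00911). Vwf lost its call with divisions as the unit (1.17, adjusted p = 0.0536), with plate as a term (1.10, 0.0775), when the groups were narrowed to the extremes of a ranking cut into 4 (0.78, 0.24) and without the experiment block (0.95, 0.153). Fli1, an ETS factor gene of HSCs and megakaryocytes, rose by 0.35 ± 0.07, a call lost with the ranking cut into 2 (0.26, adjusted p = 0.0724) and without the block (0.34, 0.143). Over 16 genes tested the list had 2 higher (12.5%, against 4.51% of all genes tested), 2 lower (12.5%, against 5.41%) and a median of -0.16.

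Erythroid and myeloid genes were split by sign. Hemgn, an erythroid nuclear protein gene, fell by 2.20 ± 0.39 in 8 of 9 experiments, the single call among 7 erythroid genes (14.3%, against 5.41% of all genes tested). Spi1, the gene of PU.1, was at 105.3 to 182.2 CPM (median 130.4) against 53.5 to 131.9 CPM (median 75.3), and rose by 0.76 ± 0.11 in 9 of 9 (adjusted p = 0.00119). The granule protease gene Prtn3 rose by 1.28 ± 0.30. Spi1 and Prtn3 were the 2 calls of 6 myeloid genes (33.3%, against 4.51% of all genes tested), with 3 without experiment 60, 69 or 77 and 4 without 75. Of the progenitor list Lsp1 (1.30 ± 0.26), Emb (0.72 ± 0.18) and Hk3 (2.28 ± 0.61) rose, and Cdk6, Serpinb1a (-0.69) and Plac8 (-4.37) fell. These were 3 higher of 18 (16.7%, against 4.51% of all genes tested) and 3 lower (16.7%, against 5.41%). Those counts fell to 1 and 1 without experiment 73, and the lower count was also 1 without 74 or 76. Emb and Hk3 lost their calls without 73, and Hk3 also without 68, 72 or 74.

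Markers of other cell types were summed as a description. The sum of 18 erythroid markers was 420.5 to 972.9 CPM (median 788.1) against 771.4 to 1234 CPM (median 933.7), lower in Procr-high divisions in 9 of 9 experiments. Sums of 19 myeloid markers (median 464.6 against 314.8), 19 lymphoid markers (180.4 against 134.9) and 17 stromal and endothelial markers (457.8 against 320.6) were higher in 9 of 9. Macrophage and dendritic markers summed to 2.09 to 170.3 CPM (median 49.9) against 2.88 to 56.5 CPM (median 16.5), higher in 8 of 9, with C1qa, Vcam1, Cd209a and Siglech listed at 0. Genes listed at 0 in both groups also included Mpo, Ctsg and Irf8 of the myeloid list, Il7r, Rag1, Rag2, Cd3e and Ms4a1 of the lymphoid list, and Hba-a2, Alas2 and Ermap of the erythroid list. Megakaryocyte markers (median 1566.5 against 1471.0 CPM, higher in 5 of 9) had Gp6, F2rl2, Zfpm1 and Cavin2 listed at 0, and mast cell markers (411.6 against 411.3 CPM, higher in 4 of 9) had 6 of 12 genes listed at 0. Entries at 0 in every cell do not show that a marker was absent, because B2m and Cox4i1, which nearly all cells express, were listed so too. Il7r, Siglech, Hba-a2, Ermap and Gp6 were not among those, and had a count in cells outside both groups. The HSC identity genes summed to 8769 to 13189 CPM (median 11896) against 7006 to 9461 CPM (median 8366), higher in 9 of 9, with Hoxb5, Txnip and Gimap1 listed at 0 and Sdpr matched to no row. The part of other cell types in the gene results was not tested.

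Part of the interferon-linked genes rose. Of 26 tested, 6 rose (23.1%, against 4.51% of all genes tested) and 0 fell (against 5.41%), with a median of 0.28. There were 4 higher without experiment 73 or 77 and 7 without experiment 60 or 69. Ifitm1, listed with the HSC genes, and Ifitm3, both membrane proteins that restrict viral entry and are high in stem cells, rose by 1.26 ± 0.16 and 0.63 ± 0.09 in 9 of 9 experiments. Rtp4 rose by 2.01 ± 0.29 and Ifi44 by 2.16 ± 0.38, as did Stat2 (0.74) and Bst2 (0.53), given after their values were seen. Ifit1 was called as well, but it had no count in 3 Procr-low and 1 Procr-high sum, so no fold is given, and its call was lost without experiments 73 or 77. Ifi27, also interferon-inducible, did not pass (-0.23 ± 0.36, adjusted p = 0.741). Its difference turned to 0.05 without experiment 69.

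Several single genes led the list of those higher in Procr-high divisions. Hmox1, whose enzyme breaks down haem (chromosome 8, 75093621 to 75100589), had 52.8 to 331.6 CPM (median 153.98) against 3.49 to 120.7 CPM (median 36.6), overlapping, with a rise of 2.34 ± 0.24 in 9 of 9 experiments (adjusted p = 0.000574). Apoe, the lipid carrier gene (chromosome 7, 19696109 to 19699188), was at 192.1 to 722.4 CPM (median 501.6) against 16.2 to 185.7 CPM (median 97), without overlap, and rose by 2.66 ± 0.42 (adjusted p = 0.00206). The long noncoding RNA Neat1, a scaffold of paraspeckles, rose by 1.21 ± 0.13. Dock4, a Rac activator gene, rose by 3.23 ± 0.43, the membrane repair gene Myof by 2.38 ± 0.29, the actin-binding gene Palld by 1.66 ± 0.22, the secreted protein gene Fstl1 by 1.27 ± 0.16 and the interferon regulatory factor gene Irf2 by 0.74 ± 0.10. C77080 (2.17 ± 0.29), Csf2rb2 of the interleukin-3 receptor (1.35 ± 0.18), the AMP deaminase gene Ampd3 (1.72 ± 0.23) and the signalling adaptor gene Pik3ap1 (1.18 ± 0.16) complete the 15 higher genes with the smallest p, and all 15 shared their sign in 9 of 9 experiments. On the lower side, Mlec, a lectin gene of the endoplasmic reticulum, fell by 0.58 ± 0.06. Slc22a3, an organic cation transporter gene, was at 0.09 to 8.18 CPM (median 1.04) against 3.65 to 290.8 CPM (median 16.6), a fitted difference of -4.65 ± 0.51 with a count in 11.7% and 52.3% of the cells. Clu (1.06 ± 0.46), Cd74 (0.81 ± 0.58), Aldh1a1 (-0.63 ± 0.19, adjusted p = 0.054) and Myc (-0.45 ± 0.24) did not pass on sums with edgeR. Aldh1a1 passed without experiment 69 (adjusted p = 0.0207) or 75 (0.0233), with DESeq2 (0.00619), voom (0.028), no filter (0.0267), the ranking cut into 2 (0.0302) or made by mean CPM (0.0191), and in run 5 alone (0.0359). Clu passed with voom (1.07, 0.0484) and Cd74 with limma on mean log2(CPM + 1) (1.08, 0.00523).

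In signalling lists, Tgfb1, the gene of a cytokine that restrains HSC division, fell by 0.69 ± 0.12, with 102.9 to 211.2 CPM against 219.7 to 409.4 CPM and no overlap. Its co-receptor Eng (0.63 ± 0.11), the receptor genes Bmpr2 (0.67 ± 0.15) and Tgfbr2 (0.42), Notch1 (1.03 ± 0.19), its ligand Jag1 (2.19) and Tcf7l2 (1.27) rose. Of 26 genes tested 6 were higher (23.1%, against 4.51% of all genes tested) and 1 lower (3.85%, against 5.41%). Without experiments 72, 73, 74, 76 or 77 there were 4 higher.

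Fewer genes passed in a fit with cell cycle scores. With each division as a unit and its G1/S and G2/M scores as covariates, 18 of 9617 genes passed (0.187%), 9 in each direction, against 620 higher and 645 lower in the same fit without the scores. The genes higher in this fit were Dock4 (2.83 ± 0.48, edgeR adjusted p = 0.000305), Cebpd, Stard9 (2.69), Galnt3, Fgd5 (1.30 ± 0.29, adjusted p = 0.0146), C77080 (1.74), Ifitm1 (0.81), Ctsl (0.77 ± 0.19, adjusted p = 0.0448) and Tinagl1 (1.18). Cebpd had no count in the Procr-low sum of 1 experiment and Galnt3 in those of 2, so no fold is given for them. Those lower were Mlec (-0.45), Itga2b (-2.43 ± 0.49, adjusted p = 0.00609), Lgals9 (-0.62), Sema4d (-0.77), Fbxo9 (-0.54), Tuba8 (-1.78), Bin2 (-0.40), Runx3 (-1.19) and Dtd1 (-0.60). Of the 18, 17 were also called on sums. These p-values rest on divisions, not on cultures, and the scores hold Ndc80 (0.29 in this fit), Plk1 (0.36) and the other genes of both cell cycle lists.

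Of the 493 genes called higher on sums that this fit tested, 96.96% were positive, with a median of 0.43 against 0.81 on sums. Of 625 called lower, 75.5% were negative, with a median of -0.13 against -0.73. Over all genes tested, 50.6% were positive and 49.4% negative. The called genes were chosen by their sign in the same divisions and counts. The shared signs were thus largely set by that choice and are a description only. The hydrolase list had a median of 0.28 (1 of 38 called, against 18 without the scores), HSC identity of 0.21, protein C and thrombin of 0.29 and G2/M of -0.11.

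The same question was put to divisions without any Plk1 count, chosen after seeing the data. Here 71 divisions remained, ranked again within 8 experiments to give 21 against 21, and 0 of 10271 genes passed with edgeR, with 932 (9.07%) at an unadjusted p under 0.05 and the smallest adjusted p, 0.066, at Ctsl (1.66). Of 522 genes called higher before, 484 were positive (median 0.60 against 0.84), and of 582 called lower, 526 were negative (median -0.59 against -0.69). Over all genes tested, 49.1% were positive and 50.9% negative. G1/S genes still had a median of -1.18 and G2/M genes of -1.19 in these divisions, hydrolases 0.41 and HSC identity 0.15. These divisions are among those that set the first contrast, so the values are a description of how it looks there.

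**Figure D4:**
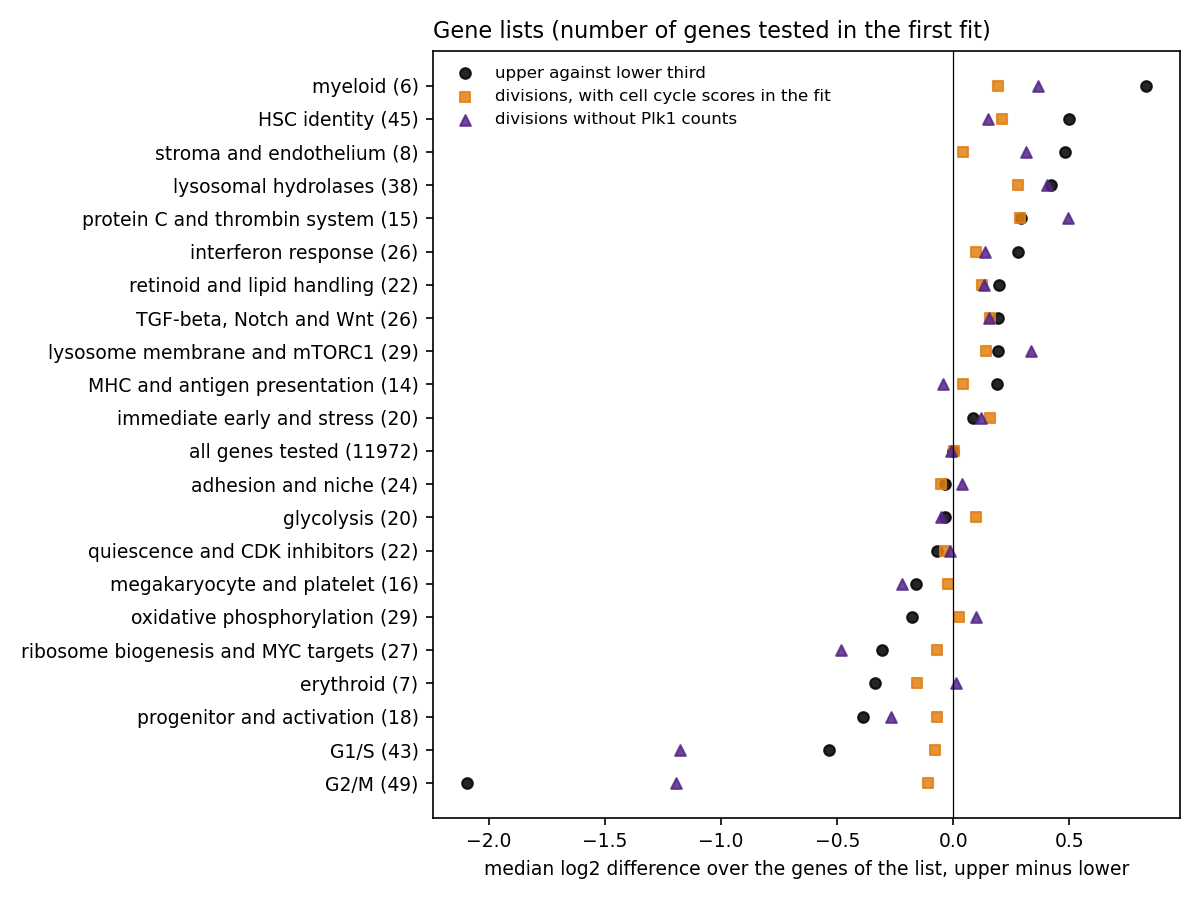
Median log2 difference, Procr-high minus Procr-low, of each gene list with at least 6 genes tested, in the fit on sums (circles), in the fit over divisions with cell cycle scores (squares) and in divisions without Plk1 counts (triangles). Lysosomal hydrolases lie at 0.28 to 0.42 in the 3 fits, with 17, 1 and 0 of 38 genes called, while G2/M genes move from -2.09 to -0.11 with the scores and to -1.19 without Plk1 counts.

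Other genes moved in the daughters that the ranking did not read. In low-lysosome daughters ranked by their sisters 64 genes were higher and 78 lower of 10908 tested (1.3%), and in high-lysosome daughters 2.36% and 3.12% of 11005 (5.48% together). Ranked by the sister, Itga2b differed by -3.14 ± 0.42 in low-lysosome and -3.05 ± 0.57 in high-lysosome daughters (adjusted p = 0.0123 and 0.0077). Hmox1 stood at 2.06 and 2.48 (0.0132 and 0.000632), Ctsl at 1.21 and 1.25 (0.0193 and 0.00367), Hlf at 1.38 and 1.65 (0.0123 and 0.00164) and Apoe at 2.72 and 2.17 (0.0263 and 0.00565), all past the threshold in both. Fgd5 (1.49, adjusted p = 0.111) and Plk1 (-2.44, 0.119) missed it in low-lysosome daughters and passed in high-lysosome daughters (1.84, 0.00571, and -1.44, 0.0166). These genes were named with their values on sums known, and those sums hold the same daughters. Their calls here are in part set by that choice and are not separate support. The count in low-lysosome daughters moved by over 1.5 times without several single experiments, down to 5 higher and 7 lower without experiment 77, and to 11 and 11 without 73.

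With edgeR, no gene's difference was called as dependent on the lysosome label or on the run. An interaction test gave 0 genes of 11038 for the label (edgeR, 3.52% at an unadjusted p under 0.05, smallest adjusted p = 0.504; DESeq2 gave 4) and 0 of 11972 for the run (553 unadjusted, smallest adjusted p = 0.737; DESeq2 gave 20). A missed threshold does not show that the differences were equal. Within runs 4 and 5, Plk1 stood at -2.20 and -3.01, Hlf at 1.25 and 1.93, Ctsl at 1.05 and 1.56, Apoe at 2.10 and 3.32 and Itga2b at -2.64 and -3.34.

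Cells without a sequenced sister gave a look outside the ranked divisions. Of 68 such cells, 20 with the highest and 20 with the lowest Procr of their own were compared over 8 experiments, without a test. Among the 540 genes called higher, 86.3% were higher in the Procr-rich cells too, against 53.7% of all genes tested, and among the 648 called lower, 93.2% were lower, against 46.2%. Plk1 had 7.05 CPM in the Procr-rich and 76.5 CPM in the Procr-poor cells, Ctsl 125.3 and 46.96 CPM, Apoe 517.2 and 133.2 CPM and Hlf 739.3 and 474.3 CPM. Itga2b had 12.2 and 14.1 CPM, and its medians in the divisions were 11.5 and 81.6 CPM.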

How the data were processed

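Per the labels, single HSC daughters were sequenced with Smart-Seq2 and Nextera libraries. The deposited tables hold raw read counts per gene, and the submitters' processing notes name featureCounts of Subread 1.5.0 and SAMtools. The aligner is not given in the sources used here, nor is the genome build. Gene identifiers were matched to GENCODE M21 (GRCm38) for symbols and positions. The deposited metadata, values of another kind, give the authors' label for experiment, movie, position, colony, run, plate and lysosome inheritance. Another 171 columns of counts match no sample of the series and were left aside.

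Of 474 cells, 406 formed 203 divisions with 1 high and 1 low daughter, and 128 divisions (256 cells) were compared. Sisters were matched on movie, experiment, position and colony. Each table has 55542 features, of which 92 spike-ins were left out of CPM. Counts were summed per experiment and group and tested with edgeR 4.0.16 in R 4.3.3 (TMM, filterByExpr, glmQLFit and glmQLFTest) with a term for each experiment and Procr left out. Genes with a Benjamini-Hochberg adjusted p under 0.05 were called. Library measures were compared by an exact sign-flip permutation test. Alternatives used DESeq2 1.42.0, limma 3.58.1, other cuts of the ranking and covariates. The edgeR step was tested on simulated data. It recovered 44% of 2-fold and 75% of 4-fold changes, with 5 false calls among 11972 genes. A gene that did not pass may thus still differ. A filter on low counts lets a gene enter through the group where it is high. The experiment number is taken from the metadata, and nothing says whether experiments used separate animals, so p-values measure the spread between cultures.

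Genes named are the 15 higher and 10 lower with the smallest p and the same sign in at least 7 of 9 experiments, up to 4 members of each of 24 lists by p, and a few fixed names. The members and lists were chosen with earlier results of these data known. Read counts carry no molecular identifiers and no strand, and 36 of the 122 genes named by the rule share exon positions with another gene (Ctsl, Ctsd, Cdk6, Plk1, Mecom and Slc22a3 among them), whose reads cannot be told apart. Python 3.11.15, numpy 2.4.6, pandas 2.3.3, scipy 1.17.1 and matplotlib 3.10.9 were used.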

Additional observations from a re-analysis of the deposited data

Results flagged for a closer look

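Of 96 sets of 9 experiment values checked (named genes and 5 library measures), 10 had 1 experiment whose gap to its nearest neighbour exceeded Dixon's 95% critical share of the range, and chance gives about 1 in 20. Values are log2(CPM + 1) differences, Procr-high minus Procr-low, per experiment. Experiment 69 stood highest for Vwf (3.45, median of 9 experiments 1.31), Ly6a (4.40, median 1.04) and Mecom (2.62, median 0.59). Experiment 68 stood highest for Palld (3.47, median 1.26) and Asah1 (1.19, median 0.48) and lowest for Rtp4 (0.26, median 1.95). Experiment 72 stood highest for Atp6v1a (0.84, median 0.40) and Rarg (3.50, median 0.95) and lowest for Eif4e (-2.06, median -0.48). Experiment 73 stood highest for Bmpr2 (1.89, median 0.57). Each group held 4 divisions in experiment 69, 5 in 68, 3 in 72 and 6 in 73, against 12 in experiment 76.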

How the results depend on the processing

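On sums, 4.51% of genes tested were higher and 5.41% lower. DESeq2 called 9.53% higher. Run 4 alone gave 0.405% and 0.939%, run 5 alone 0.39% and 0.491%, divisions with cell cycle scores 0.0936% and 0.0936%, and divisions without Plk1 counts (chosen after seeing the data) 0 and 0. Leaving out 1 experiment gave 3.03% to 4.97% higher and 3.28% to 4.91% lower. In daughters that the ranking did not read, DESeq2 called 4.46% and 3.68% (low-lysosome, against 0.587% and 0.715%) and 6.46% and 5.65% (high-lysosome, against 2.36% and 3.12%). Leaving out 1 experiment gave 0.0458% to 0.506% and 0.0641% to 0.893% in the former, and 1.35% to 2.19% and 2.03% to 2.80% in the latter. The counts moved by over 1.5 times without 60, 69, 72, 73, 74, 76 or 77 in the former and without 69, 73 or 76 in the latter. Procr itself ranged from 2.60 to 3.18 and from 2.34 to 2.70 there. Interactions gave 0 genes with edgeR and 20 (run) and 4 (lysosome label) with DESeq2.

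Signs turned for some named genes. With cell cycle scores, Ndc80 stood at 0.29, Cdca3 at 0.028, Cdc45 at 0.040, Rrm1 at 0.056, Plk1 at 0.36, Ndufv1 at 0.012, Trp53 at 0.029, Fabp5 at 0.084 and Ifi27 at 0.026. Without Plk1 counts, Cdca3 stood at 1.20, Cdkn2d at 0.77, Ndufv1 at 0.13, Aldh1a1 at 0.20 and Cd34 at -0.27. Cd74 was at -0.58 with voom and -0.31 without the experiment block, Ifi27 at 0.039 with voom and from -0.43 to 0.051 when 1 experiment was left out, and Slamf1 at -1.14 in run 5. The causes were not tested. Leaving out 1 experiment, log2 totals ranged from -0.0015 to 0.12, detected genes from -197.1 to -60.6, the mitochondrial share from 0.07 to 0.12 points, the spike-in ratio from -0.54 to -0.37 and the Plk1 difference from 37.7 to 47.04 points. The groups are paired within experiment by the block, and without the block 3.17% of genes were higher and 3.93% lower. Of 83 named genes called on sums, none lost its call with DESeq2, voom or ranking by mean CPM. Other settings kept far fewer calls. With cell cycle scores 7 kept call and sign, 65 lost the call and 8 turned sign. In run 4 alone 36 kept it, in run 5 alone 25, and in divisions without Plk1 counts 0. Without the block 18 lost it (Anxa5, Atp6v1a, Vwf, Fli1, Esam, Gp9, Ifit1, Atp6ap1, Ndufv1, Tapbp, Klf6, Emb, Ly6a, Mecom, Trp53, Hk3, Aldoc and Pkm), with the ranking cut into 4, 10 (Vwf, Gas6, Gp9, Emb, Mecom, Trp53, Ctns, Hk3, Jun and Aldoc), cut into 2, 7 (Fli1, Pfkp, Ifit1, Klf6, Ctns, Hk3 and Pkm), and at equal depth 10 (Pfkp, Rarg, Eif4e, Ndufv1, Tapbp, Ctns, Jun, Aldoc, Fabp5 and Pkm). With divisions as the unit or plate as a term 6 lost it (Cdc45, Vwf, Pfkp, Ndufv1, Klf6 and Ctns), with total counts and detected genes 4 of these (not Cdc45 or Vwf), with limma on mean log2(CPM + 1) 6 (Pfkp, Ndufv1, Klf6, Trp53, Ctns and Jun) and with no filter 1 (Pkm). At equal depth and with divisions as the unit 80 of the 83 were tested, and with the ranking cut into 4, 82.

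A Procr count of 0 in a single cell cannot be told apart from a low level that was not detected. Divisions share cultures, and sisters share a division. The cell cycle scores hold genes they adjust.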

Other observations

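Lists not described above had few calls. Over all genes tested, 4.51% were higher and 5.41% lower. Of 22 quiescence and CDK inhibitor genes, 1 rose (Ccnd1 at 0.75, chosen after its value was seen) and 4 fell: the CDK4/6 inhibitor genes Cdkn2c (-1.60 ± 0.21) and Cdkn2d (-0.99 ± 0.14), the retinoblastoma relative Rbl1 (-0.52 ± 0.13) and Trp53 (-0.38 ± 0.10). Cdkn2c had 7.06 to 21.2 CPM in Procr-high divisions (median 15.7) and 25.7 to 58.98 CPM in Procr-low divisions (median 37.8), without overlap. Leaving out 1 experiment gave 0 to 3 higher and 2 to 4 lower, the Rbl1 call was lost without 60, 68, 73, 74 or 77 and the Trp53 call without 68, 69, 72, 73, 74 or 77. Among 29 oxidative phosphorylation genes 0 rose and 1 fell (Ndufv1, -0.41 ± 0.10, lost without 68, 74 or 77), with a median of -0.18. Among 27 ribosome biogenesis and MYC target genes 0 rose and 1 fell (Eif4e, -0.70 ± 0.17, lost without 73, 74 or 77), with a median of -0.31. The shares that fell in these lists, 3.45% and 3.70%, lie near that over all genes tested. Glycolysis split, with Pfkp falling by 0.38 ± 0.08 and Aldoc (0.93 ± 0.26) and Pkm (0.24 ± 0.07) rising among 20 genes, the Aldoc call lost without 69, 72, 73, 74 or 76 and the Pkm call without 60, 69, 73, 76 or 77. The Pfkp call was lost with divisions as the unit (-0.28, adjusted p = 0.167), with the ranking cut into 2 (-0.18, 0.208), at equal depth (-0.24, 0.165) and with limma on mean log2(CPM + 1) (-0.08, 0.814). Tapbp, which loads peptides onto MHC class I, rose by 0.36 ± 0.09 as the single call of 14 MHC genes, lost without 73. The retinoic acid receptor gene Rarg rose by 1.26 ± 0.30, without overlap of the groups, and Fabp5 fell by 0.85 ± 0.23, a call lost without 60, 68, 72, 73, 74, 76 or 77. Klf6 (0.53 ± 0.13) and Jun (1.14 ± 0.31) were the calls among 20 immediate early genes, where Klf6 was lost without 60, 76 or 77 and Jun without each experiment in turn other than 72.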
